A study of Mus musculus with 2 samples.

Results

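Mouse chromosome 3 held 23554 of the 384794 scored positions of the genome, all of those listed under its name in the deposited table. They run from position 3016117 to 159932182 of mm10, with a median spacing of 5785 bp and no gap over 297 kb. The chromosome had been chosen by its low scores in this table, so its median, its share of early positions and its place among the chromosomes are given as a description and are not tested. The samples were 1 early S phase fraction and 1 late S phase fraction of 46C cells, a mouse embryonic stem cell line (strain 129P2/Ola) kept in leukemia inhibitory factor on gelatin, both sorted by DNA content after propidium iodide staining. Both fractions came from cells given 50 µM bromodeoxyuridine, a thymidine analogue built into new DNA, for 2 h. DNA from 10000 cells per fraction was pulled down with an antibody to the analogue, amplified and sequenced on the Ion Torrent platform. The authors joined both libraries into 1 score per position and smoothed it over 300 kb. There was no replicate library, so no error between experiments and no p-value can be given, and the read depth behind each value is unknown.

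Each stretch of a chromosome is copied at a characteristic time in S phase, and neighbouring origins that fire together form large domains. Early domains are generally rich in genes and open chromatin, and late domains poor in genes and often held at the nuclear lamina. In stem cells part of this pattern is rearranged when the cells differentiate. Here positive scores are read as early because the deposited table is named for early against late. No source used here states its log base, scaling or true zero, so a score is not read as a fold. A gene has the score of the position nearest to its midpoint, and "early" and "late" mean above and below the deposited 0.

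The promoters of 4 genes show how the sequence beside early and late genes varied along the chromosome. Sox2, a pluripotency transcription factor gene, had a score of 1.04, and Setdb1, which encodes a histone H3 lysine methyltransferase, had 1.53. Pcdh10, a protocadherin gene of neurons, had -1.23, and Flg, which encodes the skin barrier protein filaggrin, had -1.08. The lines give the 200 bases before each transcription start, 5′ to 3′ on the gene's strand, from RefSeq promoters of GRCm38.p6, with each CG dinucleotide in capitals. They lie at chr3:34649795-34649994 (plus strand), chr3:95357203-95357402 (minus strand), chr3:45378198-45378397 (plus strand) and chr3:93273346-93273545 (plus strand).
Sox2: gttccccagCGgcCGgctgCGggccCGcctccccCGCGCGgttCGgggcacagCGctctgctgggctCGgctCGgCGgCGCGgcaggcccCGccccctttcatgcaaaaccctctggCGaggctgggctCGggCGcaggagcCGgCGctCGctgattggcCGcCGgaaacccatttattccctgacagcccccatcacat
Setdb1: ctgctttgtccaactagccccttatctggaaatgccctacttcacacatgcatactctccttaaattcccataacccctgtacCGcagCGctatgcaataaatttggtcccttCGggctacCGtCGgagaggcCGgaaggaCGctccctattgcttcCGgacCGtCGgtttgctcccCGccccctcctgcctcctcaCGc
Pcdh10: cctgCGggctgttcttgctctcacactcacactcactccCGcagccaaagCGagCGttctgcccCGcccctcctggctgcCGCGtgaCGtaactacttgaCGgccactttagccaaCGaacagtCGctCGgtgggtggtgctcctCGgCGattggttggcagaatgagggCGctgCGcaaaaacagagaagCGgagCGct
Flg: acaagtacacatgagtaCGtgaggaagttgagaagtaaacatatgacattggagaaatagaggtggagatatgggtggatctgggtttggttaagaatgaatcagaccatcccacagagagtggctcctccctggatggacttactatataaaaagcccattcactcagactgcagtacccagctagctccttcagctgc
The early Sox2 stretch held 23 CG dinucleotides and the early Setdb1 stretch 12. The late Pcdh10 stretch held 18 and the late Flg stretch 1, so a late score went with a CG-rich promoter in one case and a CG-poor one in the other.

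Across the chromosome the same mixture was seen. RefSeq promoter windows of 300 bases, from 250 before to 50 after the start, were matched to 808 of 982 scored protein-coding genes. The 511 windows of early genes held a median of 16 CG dinucleotides (quartiles 6.5 and 25), and the 297 of late genes a median of 5 (quartiles 2.0 and 20.0). Median GC content was 58.0% in early genes and 48.7% in late genes. At least 10 CG dinucleotides were found in 351 early windows (68.7%) and in 120 late windows (40.4%), against 58.3% of all 808. The groups overlapped widely, since 120 of the 471 CG-rich promoters belonged to late genes. Early and late genes also differed in length, with medians of 19.5 kb and 25.1 kb and upper quartiles of 45.5 kb and 79.3 kb. The lower quartiles went the other way, with 9.0 kb in early genes and 6.9 kb in late genes. A count of CG letters describes the sequence and says nothing about which factor binds there. Genes that lie close together share 1 smoothed score and are not independent.

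MicroRNA genes gave a second set of sequences, shown for an early cluster known from pluripotent cells, for early genes that share seeds, and for a late gene. The miR-302 and miR-367 genes, which are known for their activity in pluripotent cells, lie together inside Larp7 (chromosome 3, 127536714 to 127553349), whose protein binds the 7SK RNA. All 5 had the score 1.06, since the cluster runs from 127545228 to 127545807, far less than the smoothing width. The mature forms on which their grouping rests are given 5′ to 3′ from RefSeq (GRCm38.p6), with the seed, bases 2 to 8, in capitals.
miR-302b-3p: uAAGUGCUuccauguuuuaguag
miR-302d-3p: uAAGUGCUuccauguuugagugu
miR-302c-3p: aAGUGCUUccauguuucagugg
miR-367-3p: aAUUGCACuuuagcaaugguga
miR-92b-3p: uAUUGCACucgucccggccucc
miR-15b-5p: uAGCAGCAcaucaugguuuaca
miR-16-5p: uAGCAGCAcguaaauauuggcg
miR-137-3p: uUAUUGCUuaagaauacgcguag
The seed of miR-302b and miR-302d was the same, and miR-302c, annotated 1 base shorter at its start, carried it shifted by 1. The seed of miR-367 was also that of miR-92b, whose gene lay at 89227116 to 89227198 with a score of 1.80. Mir15b and Mir16-2, whose products share a seed, lie in the condensin gene Smc4 and both had 1.05. Mir137, which is known from neurons, was late at -1.49. Of the 45 microRNA genes of the chromosome with a hairpin entry in the sequence table used, 30 lay above 0, or 66.7%, with a median of 1.05. Among its protein-coding genes the share was about the same, 64.1%, against 73.5% in the genome.

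Chromosome 3 had the lowest median score of the 19 autosomes. The median of its positions was -0.83 (quartiles -1.32 and 0.28), against -0.26 on the other autosomes together (quartiles -1.17 and 0.95). Of its positions 7253, or 30.8%, lay above 0, against 44.7% of positions on the other autosomes and 43.1% in the whole genome. Chromosome 16 came next with a median of -0.75, and chromosome 11 stood at the other end with 0.71. Chromosome X had a median of -0.68 and nearly the same early share as chromosome 3, at 30.9%. The order of the chromosomes does not depend on the zero point, but the share does. With the zero point at the median of all autosomal positions, 0.30 below the deposited one, 37.4% of chromosome 3 was early. With 1 position per 300 kb, 147 of 513 (28.7%) lay above 0.

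**Figure D1:**
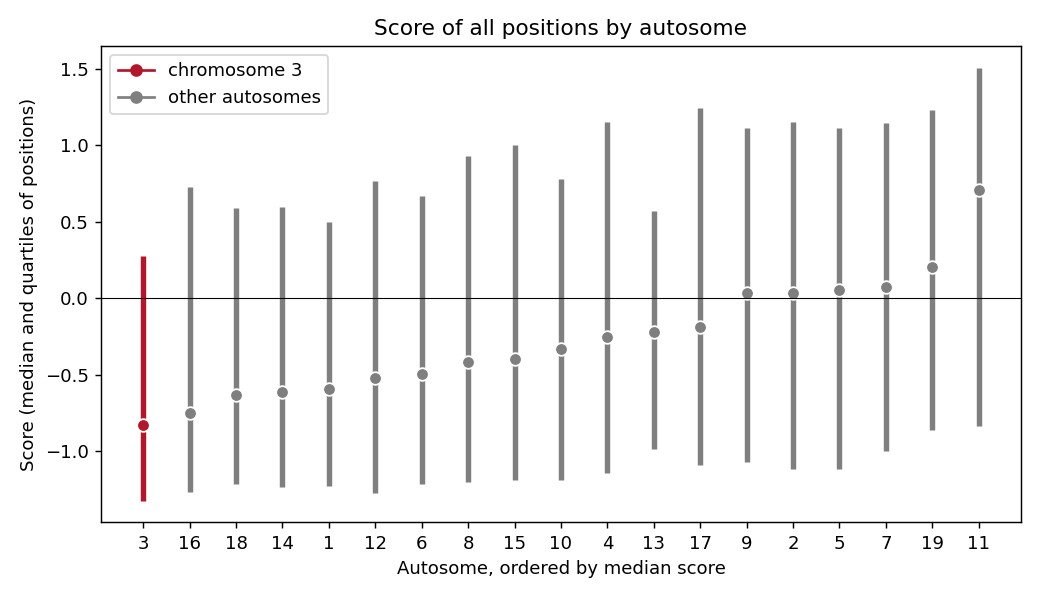
Median (point) and quartiles (bar) of the score over all positions of each autosome, ordered by median, with chromosome 3 in red at the left and the others in grey. Chromosome 3 has the lowest median, -0.83, and its upper quartile of 0.28 is below that of every other autosome.

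The chromosome was low on both sides of 0, and its high scores were few. Early positions had a median of 0.77 on chromosome 3 and 1.06 on the other autosomes, and late positions -1.21 and -1.11. Scores above 1 made up 10.8% of chromosome 3 against 23.8% of the other autosomes, the smallest share of any autosome. Scores above 1.5 made up 3.68% against 10.2%, and 11.9% of the early positions against 22.9%. Chromosome 13 was lower in both of these, with 2.37% and 5.63%. In the middle of the scale there was little difference, with 20.7% of positions on chromosome 3 and 20.0% on the other autosomes within 0.5 of 0. The highest position, 1.86 at 90097122, lay inside the tropomyosin gene Tpm3. The lowest, -1.88 at 17334039, had no protein-coding gene within 614 kb, the nearest being Cypt12.

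The early share was highest in the middle of the chromosome. Between 80 and 110 Mb 58.6% of positions lay above 0, with a median of 0.41, against 24.0% and -1.005 on the rest of the chromosome. This stretch, chosen after the scores were seen, held 482 of the 983 protein-coding genes (49.0%) and 37.3% of all early positions, with the other 62.7% outside it. Even there the scores ran from -1.83 to 1.86, because late domains broke it up. Of its 482 genes 354 (73.4%) were early, close to the 74.9% of protein-coding genes on the other autosomes. Among the 500 scored genes outside it, 275 (55.0%) were early and the median was 0.12. In segments of 10 Mb the early share was lowest at 8.97% between 110 and 120 Mb, 11.3% between 70 and 80 Mb and 12.4% between 40 and 50 Mb. These segments held 33, 21 and 15 protein-coding genes, and the segment from 90 to 100 Mb held 218.

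**Figure D2:**
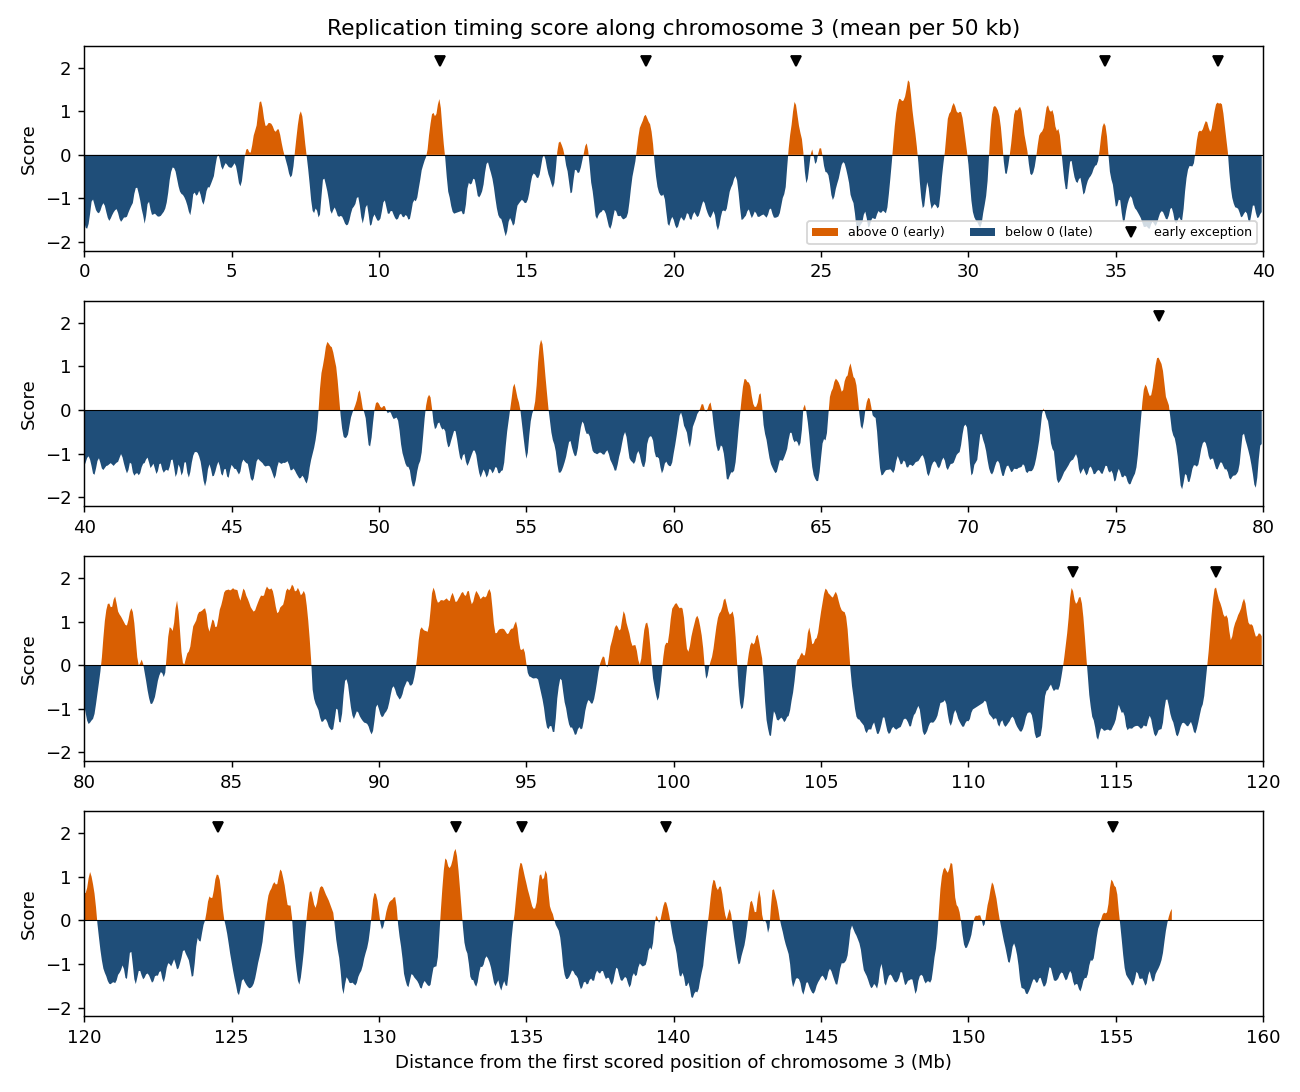
Score along chromosome 3 as the mean per 50 kb, against the distance from its first scored position in Mb, with early parts in orange, late parts in blue and triangles over the 13 early exceptions. Long late stretches are broken by narrow early peaks, and broad early blocks stand mainly in the third row.

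Early and late domains were runs of positions of 1 sign at least 300 kb long. Chromosome 3 had 46 early and 48 late ones. The early domains were short and weak, with a median length of 0.684 Mb, against 0.914 Mb for the 631 domains of the other autosomes. This was the lowest of the 19 autosomes, but chromosomes 13 and 10 were close, with 0.687 and 0.702 Mb. The median of the median scores of early domains, 0.71, was also the lowest of any autosome, against 0.90 elsewhere and 0.73 on chromosome 2. Of the 46 early domains 35 (76.1%) were shorter than 1 Mb, against 53.6% on the other autosomes. A peak above 1.5 was reached by 12 of them (26.1%), against 45.6% elsewhere. Late domains were somewhat longer, with a median of 1.40 Mb against 1.17 Mb, and lower, with a median score of -1.13 against -0.94, the lowest of the 19. The early ones added up to 41.6 Mb, the late ones to 109.9 Mb, and the early part of that length was 27.4%, against 42.0% on the other autosomes. Smoothing over 300 kb averages a short domain with its neighbours, and longer early domains had higher peaks (Spearman's rho 0.73 across the 46 domains of 1 pair of libraries).

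Gene content followed the domains as on other chromosomes. Early domains held 598 protein-coding genes, or 14.4 per Mb, against 15.7 per Mb on the other autosomes, and late domains 336, or 3.06 per Mb, against 3.60. No early domain lacked a protein-coding gene, against 9 of 631 on the other autosomes, while 4 of 48 late ones did, against 48 of 669. The longest early domain ran from 86440080 to 90746875 (4.31 Mb, peak 1.86) and held 131 genes. Among them were the chaperonin gene Cct3 (1.53), the ribosomal protein gene Rps27 (1.67), the cell cycle gene Cks1b (1.75), the muscle and neural transcription factor gene Mef2d (1.73) and the interleukin receptor gene Il6ra (1.71). The second ran from 94312777 to 98044199 (3.73 Mb, median 1.45, 104 genes). It held the proteasome genes Psmb4 (1.79) and Psmd4 (1.43), the survival gene Mcl1 (1.44), the cathepsin genes Ctsk (1.63) and Ctss (1.67), and Terc, the RNA of telomerase, at 1.63.

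The third longest, from 121149327 to 123478032 (2.33 Mb, median 0.96), held 23 genes and none of the listed ones. Its peak of 1.82 was next to the calponin gene Cnn3. The fourth, from 107201877 to 109024667 (1.82 Mb, median 1.04, 49 genes), held the glutathione transferase cluster and the G protein gene Gnai3 (1.58). The fifth, from 102663954 to 104084397 (1.42 Mb, median 0.91, 20 genes), held the proto-oncogene Nras (1.37) and Trim33 (1.34), a regulator of Smad signalling. Early domains on the chromosome that reached 3 Mb numbered 2, and none reached 5 Mb, against 66 and 19 of 631 on the other autosomes.

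The longest late domain ran from 41855595 to 50989485 (9.13 Mb, median -1.31). Its 4 protein-coding genes included the protocadherin genes Pcdh10 (-1.23) and Pcdh18 (-1.24). The second, from 109030444 to 116256029 (7.23 Mb, median -1.28, 21 genes), held the netrin-G gene Ntng1 (-1.59), the arginine methyltransferase gene Prmt6 (-1.40), the amylase genes and the collagen gene Col11a1 (-1.35). The third, from 69757351 to 75555606 (5.80 Mb, 10 genes), held the neuronal membrane protein gene Slitrk3 (-0.83) and the cholinesterase gene Bche (-1.05). The fourth ran from 146653312 to 152012191 (5.36 Mb, 8 genes) and held the adhesion receptor gene Adgrl2 (-0.91) and the interferon-induced gene Ifi44 (-1.44). The fifth, from 58803800 to 63927278 (5.12 Mb, 26 genes), held Mbnl1 (-0.97), a splicing regulator, and the purinergic receptor genes P2ry12, P2ry13 and P2ry14 at -1.40, -1.42 and -1.42. Late domains of at least 5 Mb numbered 5 of 48 on chromosome 3 and 43 of 669 on the other autosomes. Chromosomes 4, 6 and 14 also had 5, and no autosome had more.

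Gene-poor windows were late and gene-rich ones mostly early on chromosome 3. In 3 of the 4 classes of gene number that had early windows the early share was below that of the other autosomes. Of 157 windows of 1 Mb, 25.5% had a mean score above 0, against 42.2% of 2230 windows on the other autosomes. None of the 23 windows without a protein-coding gene was above 0, and none of 245 elsewhere. With 1 to 4 genes 4 of 61 (6.56%) were above 0 on chromosome 3, against 10.7% elsewhere. With 5 to 9 genes it was 16 of 43 (37.2%) against 49.3%, and with 10 to 19 genes 11 of 20 (55.0%) against 84.7%. In the class of 20 or more genes 9 of 10 windows (90.0%) were above 0, against 83.9%. Chromosome 3 held 6.26 genes per window on average and the other autosomes 8.66. If each class had the early share of the other autosomes, 33.8% of the windows of chromosome 3 would be above 0, which lies between its own 25.5% and their 42.2%. Across windows the rank correlation of gene number and score was 0.79 on chromosome 3 (Pearson's r 0.68) and 0.79 on the other autosomes (Pearson's r 0.64). Windows of 1 pair of libraries are not independent, and no test of the difference between chromosomes was made.

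**Figure D3:**
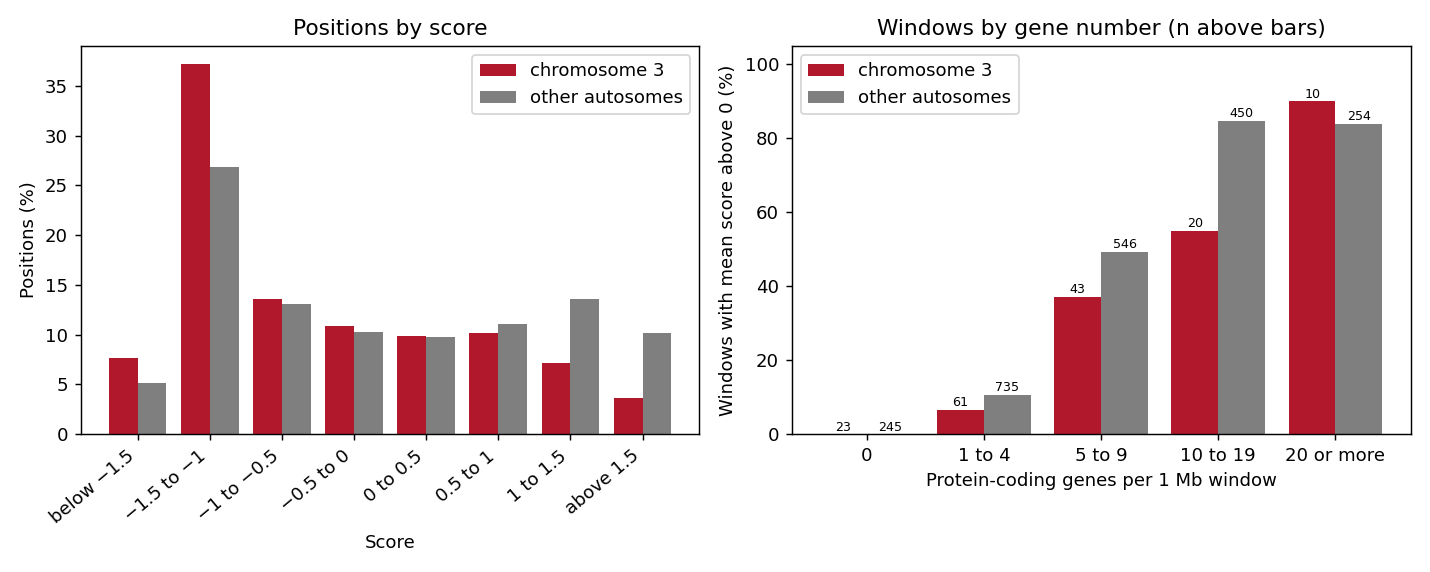
Left, percentage of positions in each score range on chromosome 3 (red) and on the other autosomes (grey); right, percentage of 1 Mb windows with a mean score above 0 by the number of protein-coding genes, with the number of windows over each bar. Chromosome 3 has fewer positions above 1, and its windows of 10 to 19 genes were above 0 in 55.0% of cases, against 84.7% elsewhere.

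Windows that departed from this relation lay in both directions. Of 30 windows with at least 10 genes 10 were late, and several of them held clusters of related genes. The window from 92 to 93 Mb had 42 genes and a mean of -1.21, the lowest of the class, and held small proline-rich and late cornified envelope genes. The windows from 93 to 94 Mb (17 genes, -0.85) and from 98 to 99 Mb (15 genes, -0.70) held the filaggrin-type genes and the hydroxysteroid dehydrogenase cluster. A window of 12 genes from 106 to 107 Mb, with a mean of -1.11, held chitinase and chitinase-like genes. Another of 12 genes, from 59 to 60 Mb, had -0.98 and held purinergic receptor genes. In the other direction 4 windows with at most 4 genes were early. The window from 34 to 35 Mb (mean 0.52) held Sox2, Fxr1 and Dnajc19 only, and that from 35 to 36 Mb (0.40) Atp11b, Dcun1d1 and Mccc1. The other two lay from 9 to 10 Mb (0.53, 3 genes) and from 41 to 42 Mb (0.67, 4 genes).

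The genes listed for basic cell functions were early nearly without exception. The list was chosen with earlier results of these data known, so it does not measure such genes in general. Among the 30 housekeeping genes 29 had positive scores, and the median of the 30 was 1.43. Several of them lay in the longest early domain, among them the neighbours Hdgf and Mrpl24 (both 1.74). Such neighbours share a smoothed score and are not separate measurements. On the whole chromosome 629 of 982 protein-coding genes were early, or 64.1%, with a median of 0.54, against 74.9% on the other autosomes and 73.5% in the genome. Tpm3 had 1.85, Psmb4, a proteasome subunit gene, had 1.79, and the ribosomal protein gene Rps3a1 had 1.34. The one below 0 was Rpl22l1, a paralogue of the ribosomal protein gene Rpl22, at -0.16 (28805508 to 28807424). Ppa2, a mitochondrial pyrophosphatase gene, was the next at 0.32. All 10 genes of the histone cluster between 96219885 and 96270192 were early, with scores of 1.41 to 1.53. The cluster is 50.3 kb long, so these are not separate measurements.

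Cell cycle and genome maintenance genes were early in 15 of 17 cases (88.2%), against 64.1% of all protein-coding genes of the chromosome. The median of the list was 1.18. Cks1b at 1.75 was the highest, Setdb1 had 1.53 and Mcl1 had 1.44. Smc4 of the condensin complex had 1.07 (69004738 to 69034623) and Cenpe, a motor protein gene of the kinetochore, had 1.18 (135212563 to 135273540). The late members were Ccna2, which encodes cyclin A2, at -0.24 and the transcription factor gene E2f5 at -0.13. Both were within 0.30 of 0 and turned early when 0 was set to the median of all autosomal positions.

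Stem cell, signalling and chromatin genes were early in 19 of 28 cases (67.9%), close to the 64.1% of all protein-coding genes of the chromosome, with a median of 0.85. The late members Fgf2 (-0.23), Notch2 (-0.16), Lmo4 (-0.061) and Fbxw7 (-0.025) lay within 0.30 of 0. They turn early when 0 is set to the median of all autosomal positions, so this share depends on the zero point. Pogz, a zinc finger gene of heterochromatin, was the highest at 1.72, followed by Terc at 1.63. Setdb1 (1.53), Nras (1.37), Sox2 (1.04; 34649995 to 34652461), the Wnt pathway factor Lef1 (0.72; 131110297 to 131224357) and the DNA demethylation gene Tet2 (0.48; 133463677 to 133545136) were early. The growth factor gene Fgf2 had -0.23 (37348477 to 37410106), while Spry1, an inhibitor of its signalling (37639947 to 37644599), lay in the next early domain at 0.74. The lowest were the Wnt antagonist Dkk2 at -1.42 and Prmt6 at -1.40. These genes were spread over almost the whole range of the chromosome.

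Developmental transcription factor genes were split, with 9 of 17 above 0 (52.9%), against 64.1% of all protein-coding genes of the chromosome. The median of the list was 0.028. Mef2d (1.73) and Sox2 (1.04) were the highest. Lhx8 of forebrain neurons had -0.72 and Zfhx4, a zinc finger homeobox gene, -1.35. Mecom, a haematopoietic regulator gene of 558 kb, had -1.35 at its midpoint and 0.41 at its transcription start.

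Synapse, adhesion and long neuronal genes had the smallest early share of the lists (15.2%), against 64.1% of all protein-coding genes of the chromosome. Of the 33 genes 28 were below 0, and the median of the list was -1.05. Trpc4, a cation channel gene, was the lowest at -1.75 (54155584 to 54318471), followed by Ntng1 at -1.59 and the giant cadherin gene Fat4 at -1.58. Nlgn1, which encodes the synaptic protein neuroligin, had -1.40 (25421808 to 26332866), Negr1 -1.39, the pyrimidine breakdown gene Dpyd -1.38, and Fstl5 -1.32. Among the 5 early members were Kirrel, an adhesion gene, at 1.32 and the ankyrin gene Ank2 at 0.28. Kirrel lies inside the longest early domain.

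The epidermal differentiation complex, which holds the genes of the outer skin layers, was divided at 1 point. Of 59 genes 12 were early (20.3%), against 64.1% of all protein-coding genes of the chromosome. The other 47 were late, and the median of the 59 was -1.08. The early ones were 12 of the 15 S100a calcium-binding protein genes, from S100a9 at 0.56 to S100a13 at 1.69 and S100a1 at 1.70. All 21 late cornified envelope genes (median -1.37), all 14 small proline-rich genes (median -1.18) and all 7 filaggrin-type genes (median -1.03) were late. Ivl, the gene of involucrin, had -1.33, and Lce1j and Lce1k had -1.59. The score crossed 0 between 90746875 and 90752693. This late domain had 112 scored positions per Mb, against 166 in the early domain beside it, and the part of that density in the result was not tested.

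Liver and metabolic genes lay on both sides, with 28 of 50 above 0 (56.0%), against 64.1% of all protein-coding genes of the chromosome. The median of the list was 0.11, and some of its clusters had 1 sign while others were split. The 7 glutathione transferase genes (107895854 to 108045179) were all early, with a median of 0.87, from Gstm5 at 0.62 to Gstm4 at 1.21, and Gstm1 had 1.11. The 6 alcohol dehydrogenase genes (138198064 to 138455499) were all early with a median of 0.34, and Adh1 had 0.27. The 3 fibrinogen genes, all of them late, had a median of -0.87, with Fgb at -0.94. All 6 amylase genes were late with a median of -0.99, and Amy1 of the salivary gland had -0.83. The 6 hydroxysteroid dehydrogenase genes, which serve steroid synthesis, were late, from Hsd3b3 at -1.46 to Hsd3b4 at -0.37, read 46.2 kb from that gene. Beside them the serine synthesis gene Phgdh had -0.30, a value that turned to 0.0054 with the other zero point. Tdo2, which breaks down tryptophan, was the lowest of the list at -1.57. Of the 4 fatty acid carrier genes 3 were early, with Fabp4 of fat cells at 0.15 and Fabp5 at -0.49, and of the 7 Clca genes 4 were early, from Clca2 at -0.38 to Clca3a1 at 0.33.

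Immune genes were early in 20 of 32 cases (62.5%), close to the 64.1% of all protein-coding genes of the chromosome, with a median of 0.40. Il6ra (1.71), the cathepsin gene Ctss (1.67) and the NF-kappaB subunit gene Nfkb1 (1.66; 135584655 to 135691969) were the highest. The cytokine genes Il2 (-0.54; 37120713 to 37125954) and Il21 (-0.44; 37222759 to 37232636), which act on lymphocytes, lie in the same late domain as Fgf2. Vcam1, an adhesion gene of blood vessels, had -0.53. Ifi44 at -1.44 and P2ry13 at -1.42 were the lowest. The guanylate-binding protein genes induced by interferon lay at the edge of a weak early domain, and Gbp2 had 0.12.

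**Figure D4:**
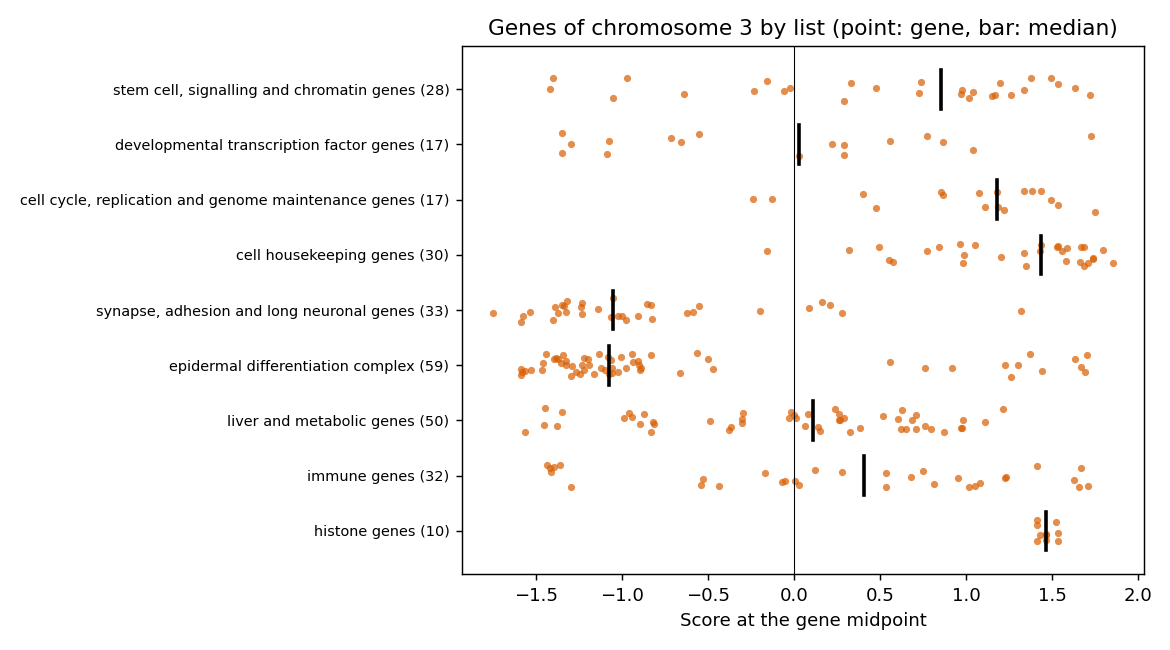
Score at the gene midpoint for each gene of 9 lists on chromosome 3, with the number of genes in brackets and a black bar at the median. Housekeeping and histone genes stand almost wholly above 0, synapse and epidermal genes mostly below, and the liver, immune and developmental lists on both sides.

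The 20 longest protein-coding genes of the chromosome, of 409 to 1346 kb, were mostly late. Many of them, Naaladl2, Nlgn1, Dpyd and Negr1 included, also belong to the list of synapse, adhesion and long neuronal genes, so both counts share genes. At the midpoint 16 of 20 were below 0, with a median of -1.19, against 35.9% of all its protein-coding genes. For 10 of them every position in the gene was below 0, and the other 10 crossed 0 within the gene. Naaladl2 (23798103 to 25144149), the longest, had -1.54 at the midpoint and between -1.74 and -0.48 along its length. Nlgn1, Dpyd and Negr1 followed with a highest position of -1.21, -1.15 and -0.79. The fifth, Iqschfp, a read-through of Iqcj and Schip1, ran from -1.65 to 0.72, with 45.1% of its positions early. Mecom ran from -1.35 to 0.41 and the potassium channel subunit gene Kcnab1 from -1.48 to 0.44, both of them early at the higher-coordinate end only. Of the 983 protein-coding genes 39 (3.97%) had ends of opposite sign.

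The early exceptions were early domains whose next domain on both sides was late, at least 1 Mb long and longer than the early domain itself. Runs shorter than 300 kb between domains were passed over. The Ect2 exception ended at 27443466 and its next late domain began at 28087522, with short early runs between them. The late domain before the Gtf2b exception ended at 142410052, and that exception began at 142593657. Chromosome 3 had 13, as many as chromosome 18 and more than any other autosome, where the number ran from 3 to 10. These counts are not scaled to chromosome size. Chromosome 3 had 46 early domains over 156.9 Mb, and chromosome 18 had 26 over 87.6 Mb. The 13 exceptions of chromosome 3 were 0.316 to 2.33 Mb long, 10.9 Mb in all, and their peaks ran from 0.44 to 1.82, with a median of 1.22. Each held at least 1 protein-coding gene and together 107, or 9.78 per Mb, against 2.65 per Mb in the 1 Mb on either side of each. On 24 of their 26 sides the neighbouring late domain had a median score below -1, and some adjacent exceptions shared such a domain.

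Several of them held genes of general use in dividing cells, beside other genes. The exception with the peak of 1.80, from 116261623 to 117060991 (median 1.40), held 11 genes. Its peak lay inside Dbt (1.77), a mitochondrial gene of branched-chain amino acid breakdown, and it also held Cdc14a (0.48), a phosphatase gene, and Sass6 (1.61), a gene of centriole assembly. It stood between late domains of 7.23 and 4.08 Mb. The one from 135118956 to 135866540 (median 1.25, peak 1.66) held 9 genes, among them Nfkb1, Cenpe and the ubiquitin-conjugating enzyme gene Ube2d3 (1.20). That from 26920501 to 27443466 (peak 1.24) held Ect2 (1.18), a regulator of cytokinesis, and the death ligand gene Tnfsf10 (0.53). The largest, from 121149327 to 123478032, was also the third longest early domain of the chromosome.

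Others are described here by genes of signalling, transcription or metabolism. The grouping rests on genes picked for mention, not on all those held. H2az1, named next, was itself in the list of cell cycle and genome maintenance genes. The exception from 137608863 to 138988831 (median 0.78, 18 genes) reached 1.34 beside H2az1, which encodes a histone H2A variant, and held the translation factor gene Eif4e (1.05), the lipoprotein assembly gene Mttp (0.65) and the alcohol dehydrogenases. That from 14662783 to 15267006 (median 0.89) held the carbonic anhydrase genes Car1 (0.71), Car2 (0.97) and Car3 (0.98) as its only protein-coding genes, while Car13 at its edge had -0.021. The peak of this exception, 1.30, lay 188 kb from Car2, the nearest protein-coding gene. The one from 21773950 to 22360439 held 1 protein-coding gene, the corepressor gene Tbl1xr1, at 0.84, and peaked at 0.93. The one from 40734643 to 41850058 (10 genes, peak 1.20) borders the longest late domain, and Jade1, a histone acetylation cofactor gene 79.7 kb from its peak, had 1.18. That from 78925112 to 79862550 (8 genes) reached 1.22 in Fnip2, a partner of folliculin.

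The exception from 127152431 to 127796392 (median 0.56, 6 genes) held the higher-coordinate part of Ank2, the miR-302 and miR-367 host Larp7 (1.06), Zgrf1 (1.04) and the proneural gene Neurog2 (0.95). Low peaks were found from 142593657 to 142915690, with a peak of 0.44 at Gtf2b, a general transcription factor gene, from 37477068 to 37793266, with 0.74 at Spry1, and from 157534398 to 158167154, with 0.95 at Cth, a cysteine synthesis gene. The last also held the splicing factor gene Srsf11 (0.77). The first and the second were 0.322 and 0.316 Mb long, close to the smoothing width.

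**Figure D5:**
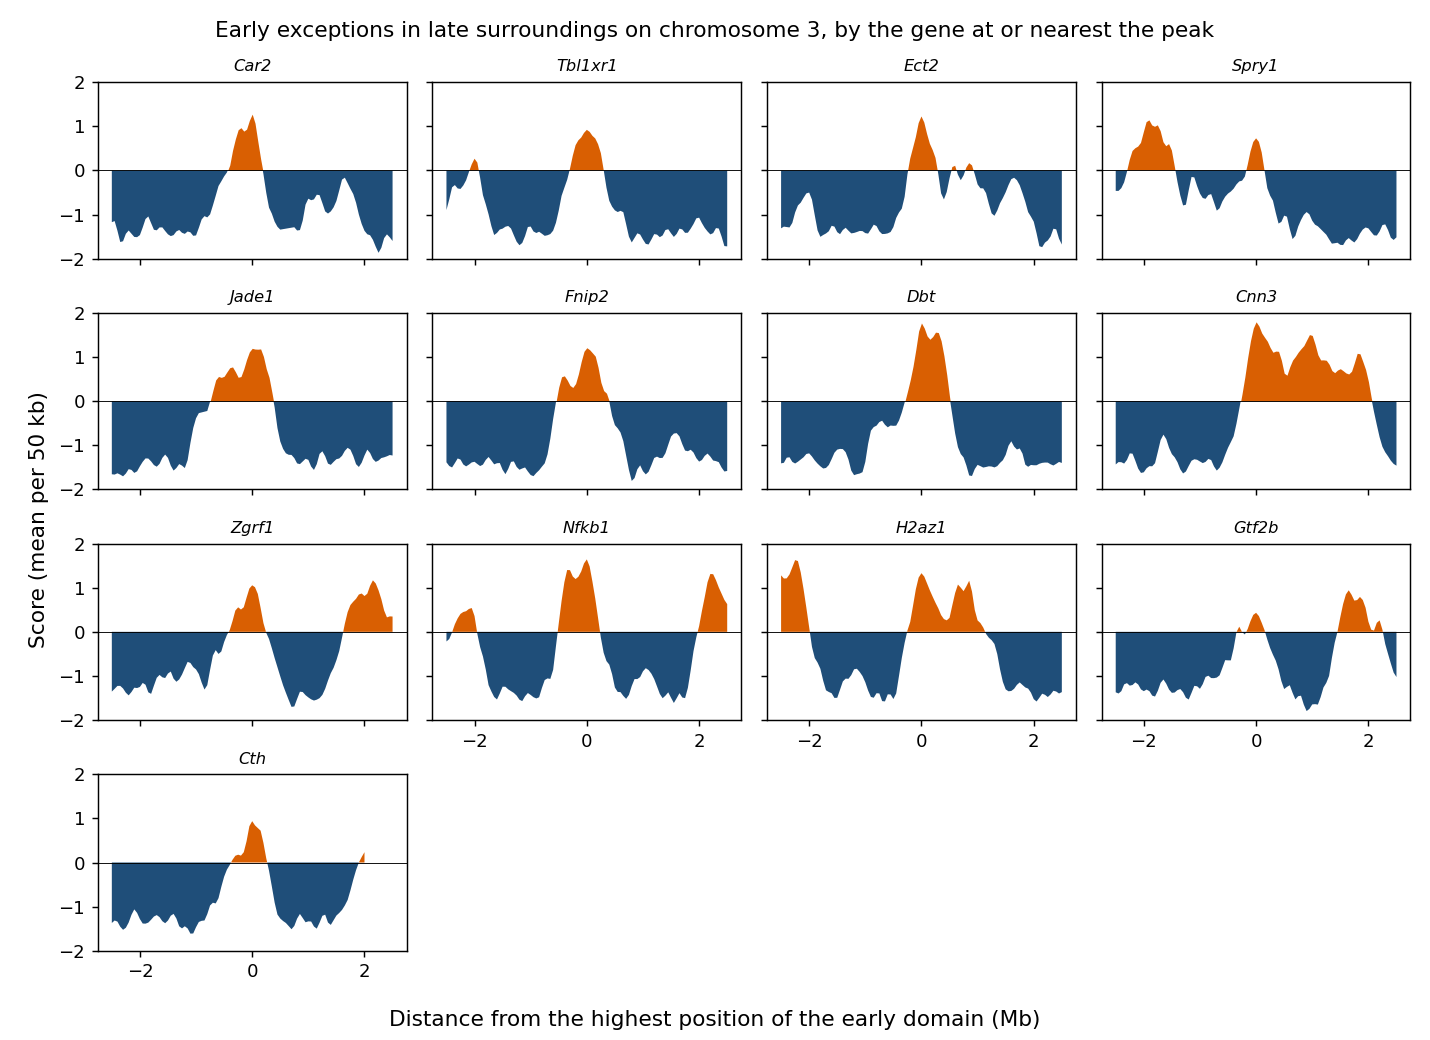
Score around the 13 early exceptions as the mean per 50 kb, against the distance in Mb from the highest position of each, with early parts in orange and late parts in blue and the gene at or nearest to that position above each panel. The peaks run from 0.44 beside Gtf2b to 1.82 beside Cnn3, and late scores stand on both sides.

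The score changed sign 129 times along the chromosome, and in 67 places it passed from at least 0.5 to at most -0.5, or the reverse, with 1 change of sign. The distance between the 2 levels had a median of 173 kb and ran from 97.7 to 779 kb. The sharpest crossing was between 33739242 and 33745393, with Ttc14 as the nearest protein-coding gene, 57.5 kb away. The next were between 105188962 and 105195015, 97.8 kb wide and 113 kb from 4930564D02Rik, and between 135107152 and 135118956, 104 kb wide and 99.5 kb from Cenpe. The fourth, 115 kb wide, was the crossing from early to late within the epidermal complex, nearest to the peptidoglycan recognition gene Pglyrp4. The fifth, 121 kb wide, lay between 152012191 and 152023901, with Gipc2 nearest. Because the authors smoothed over 300 kb, these distances describe the smoothed score of 1 pair of libraries and not the borders themselves.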

How the data were processed

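Replication timing was measured from 1 early and 1 late S phase library, grouped by the labelled replication domain. Bowtie2 and the build mm10 are named in the submitters' processing notes. What was deposited is a score at each position, which the authors smoothed over 300 kb, per the name of the deposited table. Its counting, scaling and zero point are not stated in any source used here. Of 384798 positions 4 had no value.

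Genes came from RefSeq GRCm38.p6, with coordinates as in mm10; 348 genes with scaffold coordinates were left out. A gene took the position nearest to its midpoint (at most 100 kb away, median 1.53 kb), because the gene table gives no strand. The transcription start, known for part of the genes from the promoter table, was added as an alternative after the data were seen. Domains were runs of 1 sign of at least 300 kb, ended by gaps over 300 kb. Windows of 1 Mb needed at least 20 positions. GC content of windows, exons and introns were not analysed here. With 1 library per fraction no test was made. The scripts (Python 3.11.15, pandas 2.3.3, numpy 2.4.6) were tested on simulated data.

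The members, the 9 gene lists and the alternatives were chosen with earlier results of these data known. Genes named were those marked in the lists, the extremes of each list (2 at either end), the longest genes and domains, the early exceptions with their listed genes or the gene nearest to the peak, and the 5 sharpest borders. The microRNAs, printed promoters, gene clusters, the stretch from 80 to 110 Mb and all other genes named in windows, domains and exceptions were chosen after their values were seen. Of the genes that this rule names, some are not reported here.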

Additional observations from a re-analysis of the deposited data

How the results depend on the processing

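Of 38 alternative values of the 10 main results, 30 stayed within the margin used and none changed direction. Only the median, the correlation of gene number and score and the promoter difference could change direction, because shares and counts cannot be negative. A shift of the zero point cannot alter a rank correlation, and it moves the median by 0.30, more than its margin. Both of these outcomes were fixed in advance and do not measure stability. The margins were 4.13 percentage points for shares of positions and of genes, 0.15 for medians, and 1.5 times for counts, the correlation and the promoter difference. The first margin is that of a binomial count and the second of a median over 1 position per 300 kb; both take these positions as independent, while many domains are longer. The zero point at the autosomal median lies 0.30 below the deposited one and shifts every score by that amount. It gave an early share of positions of 37.4%, a median of -0.53 and an early share of genes of 70.9%, against 30.8%, -0.83 and 64.1%. By 1 Mb window means 25.5% was early and the mean of the windows was -0.52, and the mean of positions was -0.49. With runs of at least 600 kb 28 early domains were left, against 46, because short ones fall below that length. Counting all annotated genes, 52.7% were early. The early exceptions numbered 12 to 13 in every alternative run. The counts of the 9 lists stayed within 1.5 times in all 27 alternatives. The lower zero point can only raise a count. In the histone, housekeeping, cell cycle and stem cell lists too few genes were late for a rise of 1.5 times. For those lists that outcome was fixed in advance.

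Of 147 genes chosen by the naming rule, which left out others such as Car13, 6 changed sign with the other zero point: Fgf2 to 0.071, Ccna2 to 0.066, E2f5 to 0.17, Rpl22l1 to 0.14, Phgdh to 0.0054 and Mme, a membrane peptidase gene, to 0.14. Where a gene crosses a border the place of reading decided: Mecom had 0.41 at its higher-coordinate end and its transcription start, Iqschfp 0.65 at its higher-coordinate end and Ank2 -0.43 at its lower-coordinate end. No paired analysis was possible because there was 1 library per fraction. The read depth is unknown, so weak domains near 0 cannot be told from noise.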
